A study of Homo sapiens with 6 samples.

Results

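The replication-dependent histone genes are the genes of the linker histone H1 and of the core histones H2A, H2B, H3 and H4 that sit mainly in gene clusters and are named H1-1 to H1-5, H2AC, H2BC, H3C and H4C with a number. The members were chosen by current symbol, pseudogenes left out, and older HIST names were mapped by gene identifier. By this rule 68 genes are members, of which 33 had a row among the 57820 genes of the count tables. These were 5 of 5 H1 genes, 9 of 17 H2A genes, 10 of 18 H2B genes, 5 of 13 H3 genes and 4 of 15 H4 genes, and the other 35 were not analysed here. All libraries were made from C4-2B-ENZR, a line of human prostate cancer cells labelled as resistant to enzalutamide, an androgen receptor inhibitor. RNA was sequenced from 3 libraries of cells transfected with an siRNA against RUVBL1 (siRUVBL1) and 3 libraries of cells transfected with a negative-control siRNA (NC). RUVBL1 is an AAA+ ATPase found in chromatin remodelling complexes such as INO80 and TIP60. All 6 libraries came from this 1 line and no time after transfection or separate culture is given, so p-values cover only how much these libraries differ, and part of that may be technical.

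Core histones form the octamer that DNA wraps around in the nucleosome, and linker histone H1 binds the DNA where it enters and leaves. Replication-dependent genes are transcribed mostly in S phase, when new chromatin needs histones. Their mRNAs are the best known animal mRNAs that end in a conserved stem-loop and carry no poly(A) tail. The stem-loop is bound by SLBP, and the end is cut with the help of the U7 snRNP. Some of these genes also make longer, polyadenylated mRNAs by using a poly(A) signal beyond the stem-loop, as has been described in differentiated cells.

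The stem-loop is shown here because it sets where the usual histone mRNA ends, and because most well measured members had annotated transcripts that run on past it. The 16 bases of the stem-loop were found in a GENCODE 29 transcript of 17 of the 33 members. Where the annotated transcripts hold the coding sequence alone, as for H2BC12 and H1-2, no stem-loop past it could be found. The 17 are thus not a count of the genes that have a stem-loop. Capitals mark the stem-loop, with 6 bases on each side, in the RNA's sense written as DNA.
H2BC21: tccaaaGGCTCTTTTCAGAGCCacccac
H2AC11: accaacGGCTCTTTTCAGGGCCacccac
H2BC5: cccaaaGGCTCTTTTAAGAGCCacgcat
H2AC18: tcaaaaGGCTCTTTTCAGAGCCacccac
H4C8: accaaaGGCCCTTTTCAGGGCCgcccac
H3C14 and H3C15: ccaaaaGGCTCTTTTCAGAGCCacccac
The 16 bases were the same in H2BC21, H2AC18, H3C14 and H3C15, and H2AC11, H2BC5 and H4C8 each had another version. The annotated transcript went on for 1729 bases after the stem-loop in H2BC21, 1761 in H2AC11, 1655 in H4C8 and 1154 in H3C14 and H3C15. It ended 35 bases after it in H2AC18 and 39 bases after it in H2BC5. For genes with several transcripts, the one that ran furthest past the stem-loop is given. For H2BC5 this is a transcript of 496 bases, and another of 789 bases is annotated. The 2 transcripts of H2BC5 end in a poly(A) signal.

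Of the 33 members with a row, 25 passed the filter on low counts and were tested. Well measured members were those that also averaged at least 100 normalized counts over the 6 libraries, a normalized count being the count scaled from its own library's effective size to the mean effective size of 26348516. These were 14 genes, namely H1-2, H2AC6, H2AC11, H2AC18, H2AC25, H2BC4, H2BC5, H2BC11, H2BC12, H2BC15, H2BC21, H3C15, H4C3 and H4C8. The term describes the level of counts and not whether they belong to 1 gene, since some members share sequence with copies. H3C15 reached the level only through NC 2, where all counts it shares with its copy H3C14 (mean 81.1 normalized counts) were assigned to it. A transcript ending in a poly(A) signal (AATAAA or ATTAAA within the last 50 bases) was annotated for 11 of these 14 and for 3 of the other 19 members. Counted by transcript and not by gene, 44.2% of 83129 protein-coding GENCODE 29 transcripts end this way, so the shares are not in the same unit. For H2BC12 and H1-2 among the 14, the annotated transcript holds the coding sequence alone. The same holds for H1-1, H1-3, H1-5, H2AC1, H2AC7, H2AC20, H2AC21, H3C4 and H3C13 among the others. No signal past the coding sequence could be found in them, so these shares partly follow the annotation. In H4C11, counted among the 3, only 6 bases follow the stem-loop, so its signal does not lie beyond it. The kind of RNA selection used for the libraries is not given in the sources used here, and its part in which members were well measured was not tested. H1-1 and H2AC1 had 0 counts in every library, and H1-3, H2AC7, H2AC21, H2BC1, H3C12 and H3C13 were also left untested, with at most 14.1 normalized counts in any library.

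Total counts ran from 18985542 to 25697804 in siRUVBL1 libraries and from 24720504 to 36054489 in NC libraries. RUVBL1, the target, had 2725, 2618 and 2710 normalized counts in siRUVBL1 libraries, against 4681, 4654 and 4758 in NC libraries (0.571-fold, log2 fold change -0.81, SE 0.025, edgeR adjusted p = 3.74e-10). The exact two-sided permutation p over the 6 libraries was 0.1, the smallest that 20 assignments allow. Both replicate 1 libraries stood apart, with 542 of 14127 genes at 0 in them that had at least 20 counts in every other library, and 0 of those genes were members. All 9 luminal prostate markers were present, with sums of 97886 to 100870 normalized counts in siRUVBL1 libraries and 116895 to 119233 in NC libraries. Of 8 markers of other cell types, COL1A2, DCN, LUM and CD3E had 0 counts in every library. COL1A1 had 216 to 251 normalized counts over all libraries, VWF 32.9 to 44.5 and PTPRC 5.34 to 10.9. CD68 averaged 165 in siRUVBL1 libraries and 321 in NC libraries. The sums of the 8 were 426 to 481 in siRUVBL1 libraries and 570 to 627 in NC libraries. The part of either marker sum in the histone results was not tested.

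More histone genes were higher than lower after RUVBL1 knockdown. In bulk RNA, more cells that express a gene and more RNA per cell cannot be told apart. Among the 25 tested members, 8 rose and 1 fell at an adjusted p under 0.05 (edgeR quasi-likelihood test, two-sided, Benjamini-Hochberg over 16006 genes), and 16 did not pass. Over all genes, 3060 (19.1%) were higher and 3695 (23.1%) lower, 42.2% in either direction. The median log2 fold change was 0.17 over the tested members and 0.01 over all tested genes. A positive value was found in 20 of the 25 members, beside 8270 of all 16006 tested genes. The genes that rose were H2BC21, H2AC11, H2BC15, H2AC6, H2BC5, H2BC11, H4C3 and H1-5, and the gene that fell was H2AC18. Of these, H1-5 passed the filter on low counts only through its siRUVBL1 libraries, where it was higher. A transcript ending in a poly(A) signal was annotated for 6 of the 8 that rose, for H2AC18, and for 7 of the 16 that did not pass. H4C11 is counted among the 7, although its signal does not lie beyond its stem-loop. These counts also depend on the annotation, since transcripts of H1-5, H2BC12, H1-2, H3C4 and H2AC20 hold the coding sequence alone. With library totals alone as the scaling, all genes split into 31.1% higher and 14.4% lower, and 11 members were called higher and 1 lower.

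**Figure D1:**
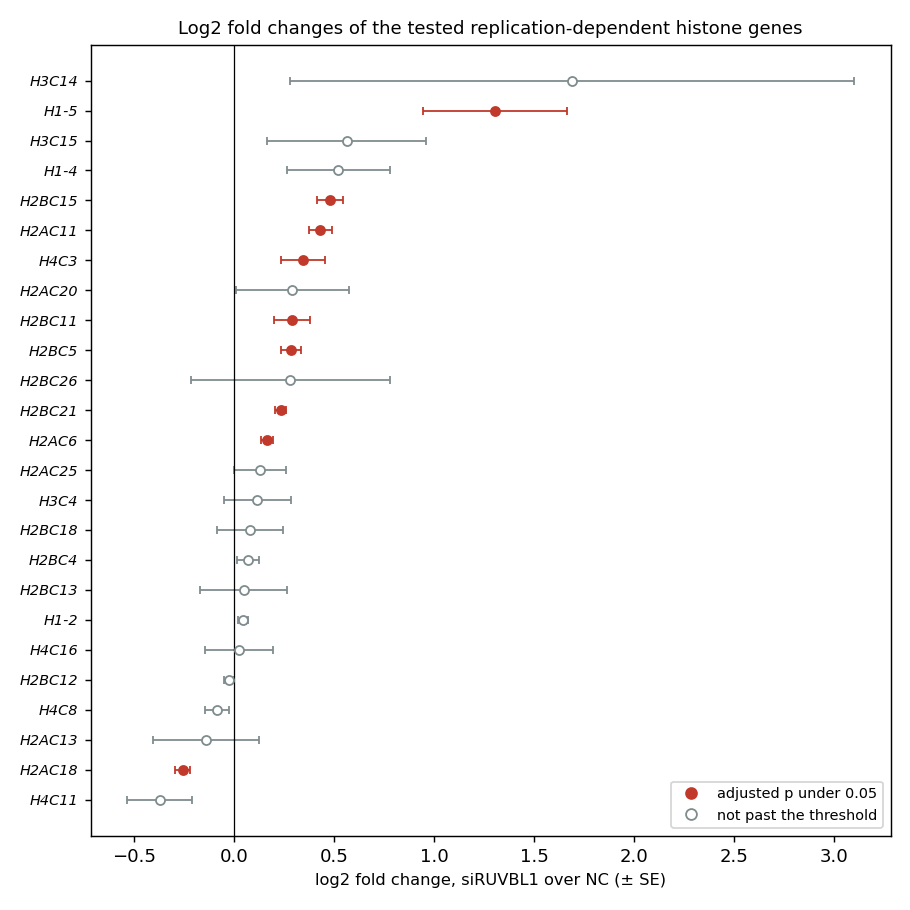
Log2 fold change of siRUVBL1 over NC for the 25 tested replication-dependent histone genes, with bars of 1 SE; filled red points have an edgeR adjusted p under 0.05 and open grey points do not. The 8 genes that rose lie between 0.17 (H2AC6) and 1.30 (H1-5, which passed the low-count filter only through its siRUVBL1 libraries), and H2AC18 lies at -0.26.

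Among the linker histones, the abundant H1-2 did not pass the test, and the rise of H1-5 rested on few counts. H1-2 had 5122, 5123 and 5101 normalized counts in siRUVBL1 libraries, against 5151, 4911 and 4827 in NC libraries. The groups overlapped, with NC 1 above all 3 siRUVBL1 libraries, and the gene did not pass (log2 fold change 0.04, SE 0.024, edgeR adjusted p = 0.175), although it did with library totals alone (0.14, adjusted p = 0.000987) and without NC replicate 1 (0.07, adjusted p = 0.0298). H1-5 had 17, 28 and 29 counts in siRUVBL1 libraries, against 7, 14 and 16 in NC libraries. In normalized counts these were 22.7, 27.8 and 31.5 in siRUVBL1 libraries and 7.67, 10.6 and 14.6 in NC libraries. H1-5 passed the filter on low counts through its siRUVBL1 libraries, since NC 1 and NC 2 lay under the filter's level. It was thus tested because of the group where it was higher, which limits what its test can show. Every siRUVBL1 library was above every NC library (2.47-fold, log2 fold change 1.30, SE 0.361, edgeR adjusted p = 0.0112), and without siRUVBL1 replicate 3 the adjusted p was 0.0659. H1-4 had 33.7 to 56.1 normalized counts in siRUVBL1 libraries and 28.5 to 38 in NC libraries, and did not pass (edgeR adjusted p = 0.128), although it did without siRUVBL1 replicate 3 (adjusted p = 0.0429).

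H2A genes went both ways. H2A pairs with H2B in the dimers at the faces of the nucleosome. H2AC11 had 689, 678 and 674 normalized counts in siRUVBL1 libraries, against 535, 505 and 474 in NC libraries. The groups were far apart relative to their spread (1.35-fold, log2 fold change 0.43, SE 0.057, edgeR adjusted p = 5.84e-05). H2AC6 had 3294, 3253 and 3139 normalized counts in siRUVBL1 libraries, against 2807, 2919 and 2911 in NC libraries. Its groups did not overlap either, with a smaller difference (1.12-fold, log2 fold change 0.17, SE 0.03, edgeR adjusted p = 0.000634), and with library totals alone the value was 0.26.

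H2AC18 was the 1 member that fell. It had 2116, 2308 and 2178 normalized counts in siRUVBL1 libraries, against 2527, 2696 and 2678 in NC libraries. The 3 siRUVBL1 libraries were all below the lowest NC library (0.836-fold, log2 fold change -0.26, SE 0.038, edgeR adjusted p = 0.000149), and with library totals alone the value was -0.16. All 50-base stretches of the annotated H2AC18 transcript also occur in HIST2H2AA4, a near-identical copy that was not analysed here, so reads of the copies cannot be told apart and the value may belong to either. H2AC25, a gene outside the main clusters, had 176, 194 and 193 normalized counts in siRUVBL1 libraries, against 141, 200 and 174 in NC libraries. NC 2 was above all siRUVBL1 libraries, and the gene did not pass (log2 fold change 0.13, SE 0.129, edgeR adjusted p = 0.477). H2AC13 and H2AC20 had 23.8 to 41.6 normalized counts over all libraries and did not pass (edgeR adjusted p = 0.741 for H2AC13 and 0.463 for H2AC20).

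Of the H2B genes, 4 of 9 tested rose and 0 fell, beside 2 of 6 H2A genes and 1 of 3 H1 genes that rose and 19.1% higher and 23.1% lower over all genes. The classes were not tested against each other. H2BC21 had 3163, 3218 and 3174 normalized counts in siRUVBL1 libraries, against 2735, 2729 and 2671 in NC libraries. The libraries of each group lay close together and apart from the other group (1.17-fold, log2 fold change 0.23, SE 0.026, edgeR adjusted p = 1.66e-05). H2BC15 had 506, 485 and 503 normalized counts in siRUVBL1 libraries, against 335, 377 and 361 in NC libraries. Its difference was the largest of the H2B genes that passed, again without overlap (1.39-fold, log2 fold change 0.48, SE 0.065, edgeR adjusted p = 7.65e-05). The annotated H2BC15 gene overlaps HIST1H2AK on the opposite strand and HIST1H2AL on the same strand, both H2A genes, and whether counting used strand is not given, so part of its counts may come from them.

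H2BC5 had 972, 1006 and 920 normalized counts in siRUVBL1 libraries, against 777, 764 and 841 in NC libraries. The lowest siRUVBL1 library was above the highest NC library (1.22-fold, log2 fold change 0.28, SE 0.051, edgeR adjusted p = 0.000688). H2BC5 overlaps an antisense gene, AL353759.1, whose reads cannot be told apart without strand. H2BC11 had 286, 268 and 302 normalized counts in siRUVBL1 libraries, against 215, 238 and 248 in NC libraries. The groups did not overlap (1.22-fold, log2 fold change 0.29, SE 0.091, edgeR adjusted p = 0.0228), and the gene passed in 10 of 15 alternative settings. Without siRUVBL1 replicate 3 its adjusted p was 0.0911, without NC replicate 1 it was 0.0839, and without NC replicate 2 it was 0.0545.

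H2BC12, the replication-dependent member with the most counts, did not pass. It had 5490, 5592 and 5471 normalized counts in siRUVBL1 libraries, against 5429, 5798 and 5615 in NC libraries. The groups overlapped (log2 fold change -0.03, SE 0.024, edgeR adjusted p = 0.447), and with library totals alone the direction turned to 0.07 with an adjusted p of 0.0191. Of the 50-base stretches of H2BC12, 74.1% occur in other genes, so its value is uncertain. H2BC4 had 557, 591 and 575 normalized counts in siRUVBL1 libraries, against 525, 548 and 567 in NC libraries. These groups overlapped as well (log2 fold change 0.07, SE 0.055, edgeR adjusted p = 0.345), and the gene passed with library totals alone (0.17, adjusted p = 0.0222). H2BC13, H2BC18 and H2BC26 had between 6.52 and 92.4 normalized counts and did not pass (edgeR adjusted p between 0.721 for H2BC26 and 0.912 for H2BC13).

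**Figure D2:**
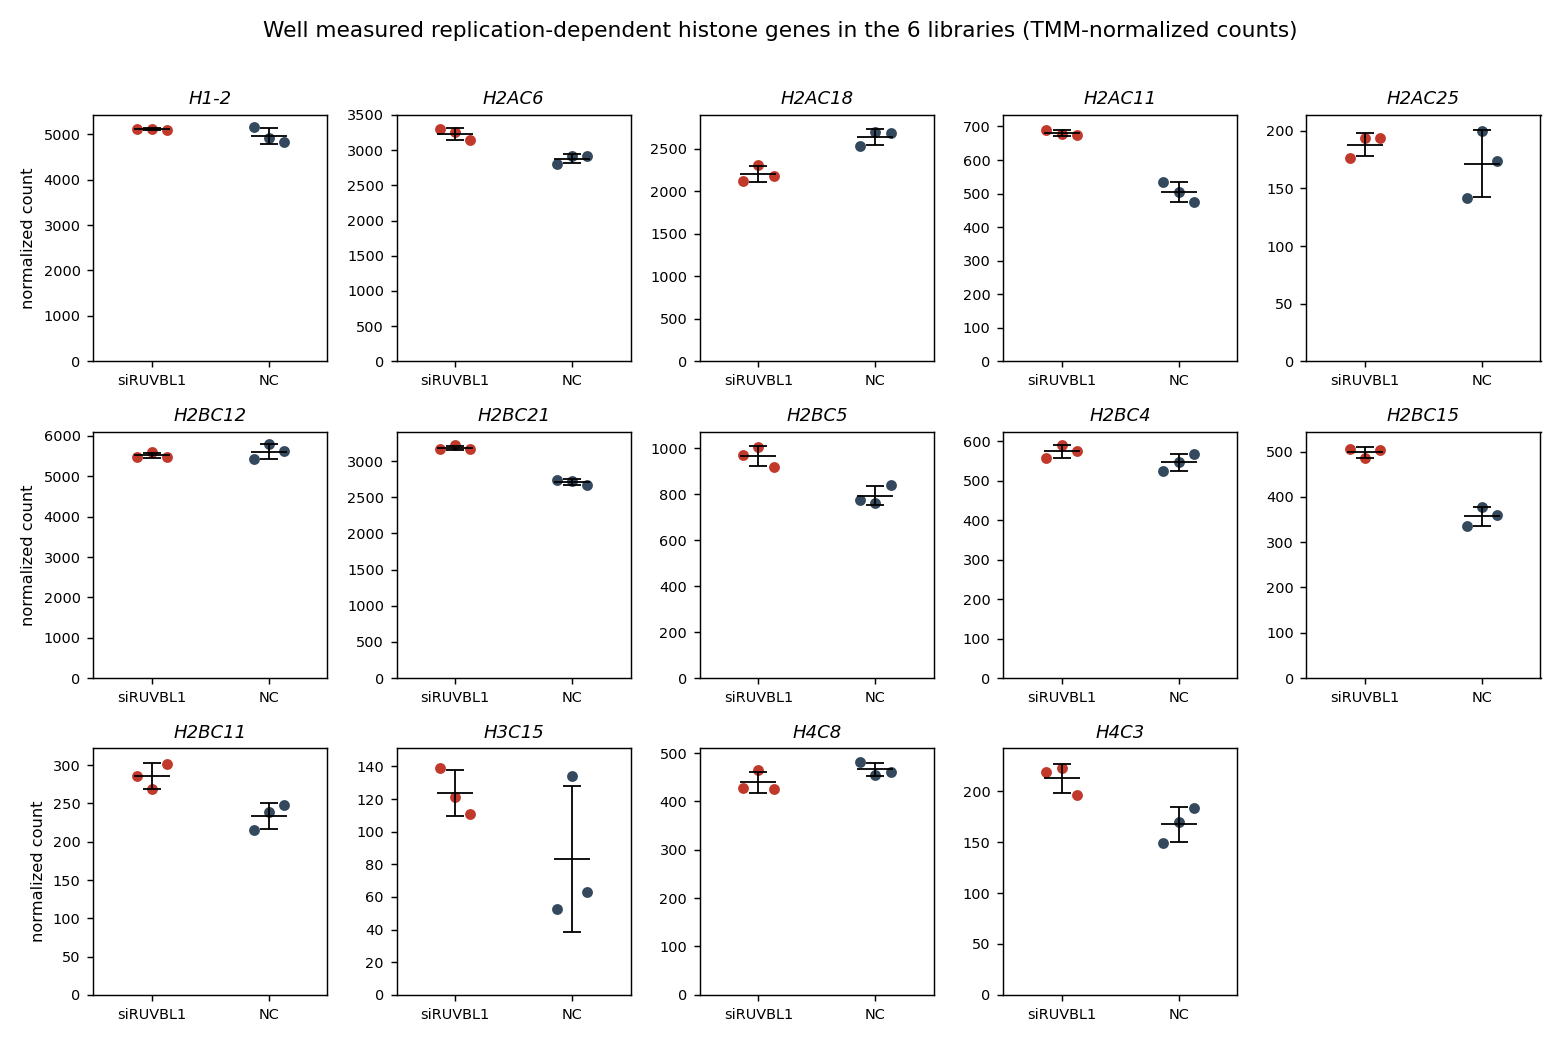
Normalized counts of the 14 well measured genes, 1 panel a gene, with siRUVBL1 libraries in red and NC libraries in dark blue; each point is a library, in replicate order from left to right, and bars are the mean ± SD of 3 libraries. H2BC21, H2AC11, H2BC15, H2AC6 and H2BC5 are higher in all siRUVBL1 libraries, H2AC18 is lower in all of them, and H1-2, H2BC12 and H2BC4 overlap.

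H3 forms, with H4, the tetramer at the centre of the nucleosome. Its only genes here above 100 normalized counts in any library were the copies H3C14 and H3C15, whose annotated transcripts share all their 50-base stretches. The deposited estimates for the copies were equal in 5 of 6 libraries, at 103.97, 122 and 102.5 counts for each in siRUVBL1 libraries and 47.83 and 69.36 in NC 1 and NC 3. In NC 2 the estimate was 0 for H3C14 and 177.26 for H3C15. Neither copy passed by itself (log2 fold change 1.69, SE 1.41, edgeR adjusted p = 0.432 for H3C14, and 0.56, SE 0.397, adjusted p = 0.336 for H3C15), and without NC replicate 2 each had 1.09 and an adjusted p of 0.00111.

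Summed before the fit, an alternative chosen after seeing the data, the H3C14 and H3C15 pair had 278, 242 and 223 normalized counts in siRUVBL1 libraries, against 105, 135 and 127 in NC libraries. All siRUVBL1 libraries were then above all NC libraries (2.02-fold, log2 fold change 1.02, SE 0.126, edgeR adjusted p = 3.43e-05 over 16005 genes). On the opposite strand, H3C14 overlaps HIST2H4A and H3C15 overlaps HIST2H4B, both H4 genes, by 230 bases each. Whether counting used strand is not given, so part of the pair's counts may come from them. With the pair as 1 gene, 9 of 24 members were called higher and 1 lower, beside 19.1% higher and 23.1% lower over all genes. H3C4, at 62.1 to 85.8 normalized counts, did not pass (edgeR adjusted p = 0.651), and all of its sequence lies within AL031777.3, an overlapping annotated gene.

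**Figure D3:**
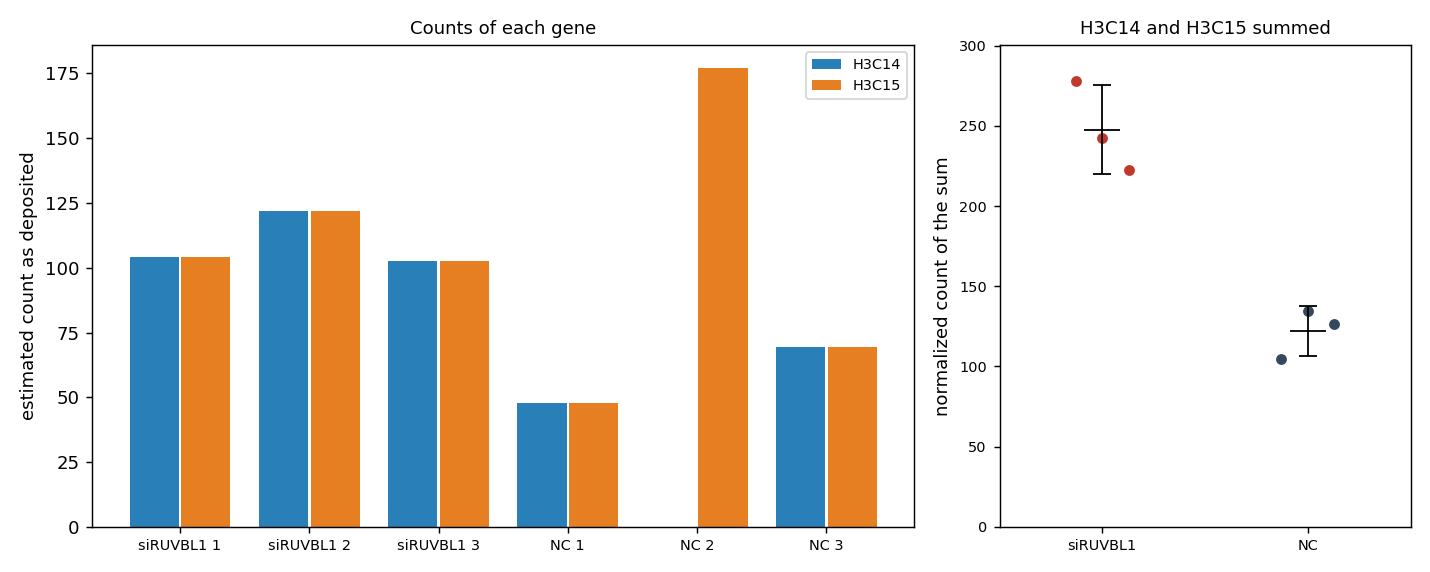
Left, deposited estimated counts of H3C14 (blue) and H3C15 (orange) in each library; right, normalized counts of their sum, with each library as a point and the mean ± SD of 3 libraries. The estimates are equal in every library but NC 2, and the sums are 223 to 278 in siRUVBL1 libraries and 105 to 135 in NC libraries.

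Of the H4 genes, H4C3 rose and the others did not pass. H4C3 had 219, 223 and 197 normalized counts in siRUVBL1 libraries, against 149, 170 and 184 in NC libraries. The groups did not overlap (1.27-fold, log2 fold change 0.34, SE 0.111, edgeR adjusted p = 0.0252), but the gene passed in only 8 of 15 alternative settings. With DESeq2 its adjusted p was 0.0541, and it was 0.0638 without siRUVBL1 replicate 1, 0.0924 without siRUVBL1 replicate 2, 0.094 without NC replicate 1 and 0.0659 without NC replicate 2. H4C8 had 429, 464 and 425 normalized counts in siRUVBL1 libraries, against 482, 456 and 461 in NC libraries. Its groups overlapped (log2 fold change -0.09, SE 0.061, edgeR adjusted p = 0.3), and with library totals alone the value was 0.01. H4C11 had 53.4, 67.6 and 64.1 normalized counts in siRUVBL1 libraries, against 77.8, 82.0 and 80.4 in NC libraries. These groups were apart, yet the gene missed the threshold (log2 fold change -0.37, SE 0.162, edgeR adjusted p = 0.0844), and 81.2% of its 50-base stretches occur in HIST1H4K. H4C16 had 54.7 to 59.8 normalized counts and did not pass (edgeR adjusted p = 0.943).

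Counting the libraries alone, 9 of 25 tested members had every siRUVBL1 library above every NC library and 2 had every one below. Among the 9 were H3C14, listed at 0 in NC 2, and H1-5, tested only through its siRUVBL1 libraries. Over all tested genes the shares were 25.3% above and 27.4% below, 52.6% in either direction. Summed CPM values (counts scaled by effective library size), given with no test, differed by class. H2B genes summed to 424 ± 4.41 in siRUVBL1 libraries and 394 ± 8.89 in NC libraries (SD, n = 3 each), without overlap. H3 genes summed to 12.8 ± 0.835 in siRUVBL1 libraries and 7.7 ± 0.575 in NC libraries, also without overlap. This H3 sum mostly follows the H3C14 and H3C15 pair, which averaged 248 normalized counts in siRUVBL1 libraries and 122 in NC libraries. H3C4 averaged 79.1 normalized counts in siRUVBL1 libraries and 72.9 in NC libraries. H1 genes summed to 197 ± 0.785 in siRUVBL1 libraries and 190 ± 6.1 in NC libraries, and H2A genes to 242 ± 5.33 in siRUVBL1 libraries and 238 ± 6.01 in NC libraries, both with overlap. H4 genes overlapped as well, at 29.3 ± 1.38 in siRUVBL1 libraries and 29.3 ± 0.435 in NC libraries. All 33 members summed to 905 ± 11.4 in siRUVBL1 libraries and 859 ± 11 in NC libraries, without overlap. H2BC12, H1-2, H2AC6, H2BC21 and H2AC18 held 80.7% to 80.8% of the member counts in siRUVBL1 libraries and 82.8% to 83.4% in NC libraries.

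**Figure D4:**
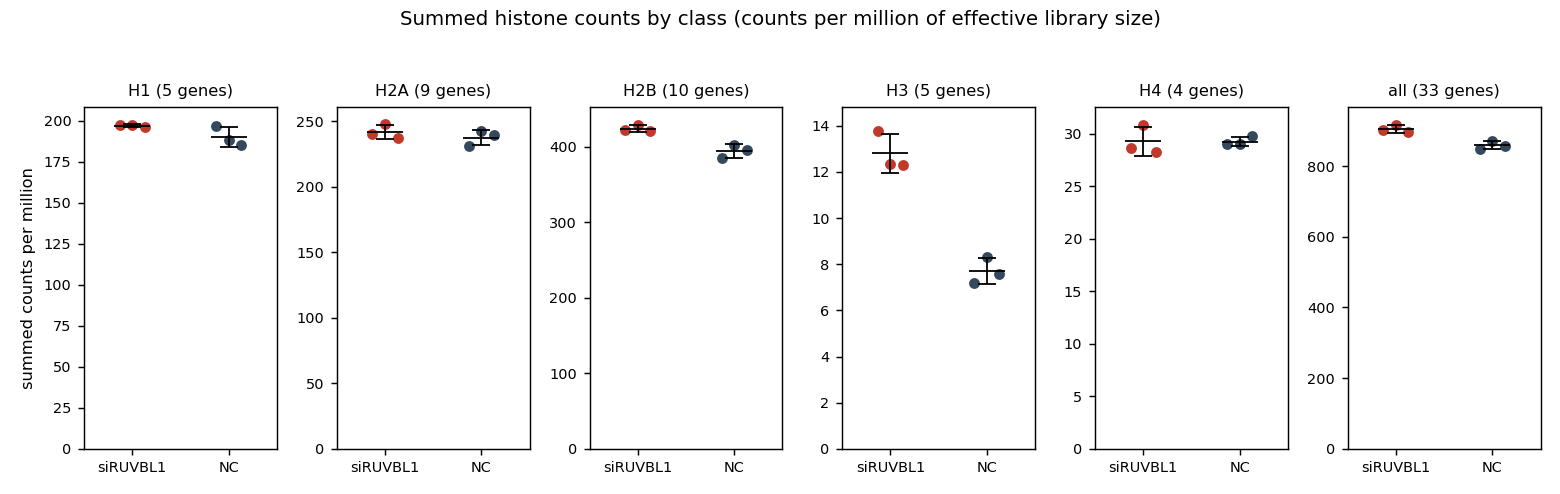
Summed CPM, scaled by effective library size, for each histone class and for all 33 members, with each library as a point and bars for the mean ± SD of 3 libraries, siRUVBL1 in red and NC in dark blue. H2B, H3 and the sum of all members are apart, with means of 424 in siRUVBL1 and 394 in NC libraries for H2B, 12.8 in siRUVBL1 and 7.7 in NC for H3, and 905 in siRUVBL1 and 859 in NC for all; H1, H2A and H4 overlap.

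Levels between genes can be set side by side only per length, here as CPM for each kilobase of the longest GENCODE 29 transcript. H2AC18 was at 152 ± 6.76 in siRUVBL1 libraries and 182 ± 6.43 in NC libraries (SD, n = 3 each), shared with its copy. H2AC6 was at 73.5 ± 1.83 in siRUVBL1 libraries and 65.5 ± 1.42 in NC libraries, and H2BC21 at 55.1 ± 0.506 in siRUVBL1 libraries and 46.9 ± 0.613 in NC libraries. H2BC5 was lower still on this scale, at 46.5 ± 2.07 in siRUVBL1 libraries and 38.2 ± 2.0 in NC libraries, but with its shortest transcript it was at 73.9 in siRUVBL1 libraries and 60.8 in NC libraries, above H2BC21. For H2BC12 and H1-2 the annotated transcript holds the coding sequence alone, so their levels per kilobase of 550 and 302 in siRUVBL1 libraries and 559 and 293 in NC libraries are not comparable with the rest.

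The promoters of the H2B genes are printed because H2B genes are the largest class tested here and H2B promoters are known for an element, the octamer, bound by the transcription factor encoded by POU2F1. RefSeq (GRCh38.p14) had promoters for 31 of the 33 members, from 250 bases before to 50 after the start. The 120 bases before the start follow for 4 H2B genes that rose and 2 that did not pass, 5′ to 3′ on the strand of the gene. Capitals mark the motifs searched on both strands. One is the octamer ATTTGCAT. Another is the CCAAT box, named for its letters CCAAT. The TATA box was searched as TATAAA. The last, GGTCCG, is the core of the site of HINFP, an H4 regulator.
H2BC21: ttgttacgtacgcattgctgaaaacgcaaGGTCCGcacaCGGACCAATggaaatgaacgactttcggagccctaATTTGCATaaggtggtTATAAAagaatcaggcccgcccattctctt
H2BC15: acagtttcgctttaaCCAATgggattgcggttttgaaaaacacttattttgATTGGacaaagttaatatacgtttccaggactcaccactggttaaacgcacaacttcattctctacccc
H2BC5: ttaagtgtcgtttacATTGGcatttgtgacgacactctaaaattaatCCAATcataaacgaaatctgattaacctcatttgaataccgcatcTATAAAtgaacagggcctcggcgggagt
H2BC11: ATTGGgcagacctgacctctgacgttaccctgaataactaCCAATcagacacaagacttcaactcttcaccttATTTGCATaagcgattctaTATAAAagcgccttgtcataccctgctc
H2BC12: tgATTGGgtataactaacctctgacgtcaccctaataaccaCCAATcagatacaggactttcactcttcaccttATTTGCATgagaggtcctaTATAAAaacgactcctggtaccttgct
H2BC4: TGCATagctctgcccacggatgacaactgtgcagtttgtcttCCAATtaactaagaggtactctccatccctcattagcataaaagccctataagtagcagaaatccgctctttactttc
These lie at chr1:149886683-149886802 (minus strand) for H2BC21, chr6:27838449-27838568 (plus) for H2BC15, chr6:26158001-26158120 (plus) for H2BC5, chr6:27132796-27132915 (minus) for H2BC11, chr6:27146859-27146978 (minus) for H2BC12 and chr6:26123927-26124046 (minus) for H2BC4, and H2BC5 and H2BC12 have a further annotated start. In H2BC21 a GGTCCG on the opposite strand overlaps the CCAAT. In H2BC4 the capitals at the left edge are the end of an octamer that starts 123 bases before the gene's start.

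The octamer stood in the promoters of H2BC21 and H2BC11, which rose, and of H2BC12 and H2BC4, which did not pass, while its letters were not in the windows of H2BC15 and H2BC5, which rose. Over the members it was in 6 of 10 H2B, 6 of 9 H2A, 1 of 4 H3 (H3C4, at a start annotated for H2AC7 as well), 0 of 5 H1 and 0 of 3 H4 promoters, against 1.77% of 35116 RefSeq promoters of the same length. The H2A and H2B counts are not independent, since windows of divergent pairs overlap. A single octamer is counted for both genes in the pairs H2AC20 and H2BC21, H2AC11 and H2BC11, H2AC6 and H2BC4, and H2AC1 and H2BC1. Other motifs in such windows are also counted for both genes. CCAAT was in all 5 H1, 9 H2A, 10 H2B and 4 H3 promoters and in 0 of 3 H4 promoters, against 34.6% of all RefSeq promoters. GGTCCG was in all 3 H4 promoters with an entry, against 11.3% of all, and TATAAA was in 7 of 10 H2B promoters, against 11.5%. These counts take either strand and the whole window. In H2BC4 the only TATAAA is on the opposite strand, at -220 from its start, and is the TATAAA that H2AC6 has at -31.

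Some H2A and H2B genes share a promoter between divergent starts. H2AC11 and H2BC11, whose starts are 248 bases apart, both rose. H2AC6 and H2BC4 start 246 bases apart, and H2AC6 rose while H2BC4 did not pass; the difference between them was not tested. H2AC20 and H2BC21 start 236 bases apart, and H2BC21 averaged 3185 normalized counts in siRUVBL1 libraries and 2711 in NC libraries while H2AC20, which did not pass, averaged 30.7 in siRUVBL1 libraries and 25.1 in NC libraries. In the pairs H2AC13 with H2BC13 and H2BC26 with H2AC25, neither gene passed, and H2BC1 and H2AC1 were not tested.

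Variant and replication-independent histone genes, which are transcribed through the cell cycle or serve special chromatin, were listed for comparison. Of 20 on the list, 12 were tested, 8 rose and 0 fell (edgeR adjusted p under 0.05), with a median log2 fold change of 0.32, beside 19.1% higher and 23.1% lower over all genes. With library totals alone, 10 were higher and 0 lower, beside 31.1% higher and 14.4% lower over all genes. At an unadjusted p under 0.05 the count of falls was also 0, as with DESeq2 and limma-voom. CENPA, the H3 variant of centromeres, averaged 1020 normalized counts in siRUVBL1 libraries and 565 in NC libraries (log2 fold change 0.85, SE 0.046, edgeR adjusted p = 2.68e-08). The replacement H3.3 genes H3-3B (0.44, edgeR adjusted p = 3.7e-09) and H3-3A (0.29, 8.77e-08), the DNA damage variant gene H2AX (0.37, 3.91e-08) and H2AZ2 (0.30, 7.78e-08), which encodes an H2A.Z protein, rose as well.

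Genes that transcribe or process histone mRNA moved in both directions. Of 30 on the list, 29 were tested, 6 rose and 12 fell, with a median log2 fold change of -0.10, beside 19.1% higher and 23.1% lower over all genes. With library totals alone, 9 of the 29 were higher and 8 lower, beside 31.1% higher and 14.4% lower over all genes. SLBP, the stem-loop binding protein, averaged 2113 ± 39.2 normalized counts in siRUVBL1 libraries and 2400 ± 40.8 in NC libraries (SD, n = 3 each), and fell by 0.18 on the log2 scale (SE 0.03, edgeR adjusted p = 0.000308), or by 0.08 with library totals alone. CCNE2 (-0.74, edgeR adjusted p = 5.27e-06) and CDK2 (-0.26, 2.21e-05, or -0.16 with library totals alone), a cyclin E and its kinase that act on NPAT, fell, as did the cap-binding gene NCBP1 (-0.44, 6.23e-06), the cleavage factor gene CPSF2 (-0.35, 1.29e-05) and the uridylyltransferase gene TUT7 (-0.41, 3.53e-05). POU2F1, which encodes the octamer-binding OCT1, rose (0.32, edgeR adjusted p = 4.48e-05).

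NPAT, the coactivator of histone gene transcription, had 489, 511 and 492 normalized counts in siRUVBL1 libraries, against 598, 538 and 555 in NC libraries. The groups did not overlap (log2 fold change -0.18, SE 0.058, edgeR adjusted p = 0.0263), but the call was lost with DESeq2 (0.07), with library totals alone (0.31) and without siRUVBL1 replicate 1 (0.0634), siRUVBL1 replicate 3 (0.0776) or NC replicate 1 (0.0954). CASP8AP2, a partner of NPAT in histone locus bodies, did not pass (log2 fold change -0.24, edgeR adjusted p = 0.13), but did without NC replicate 3 (0.0238). LSM11, a protein of the U7 snRNP, did not pass (0.02, adjusted p = 0.91).

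**Figure D5:**
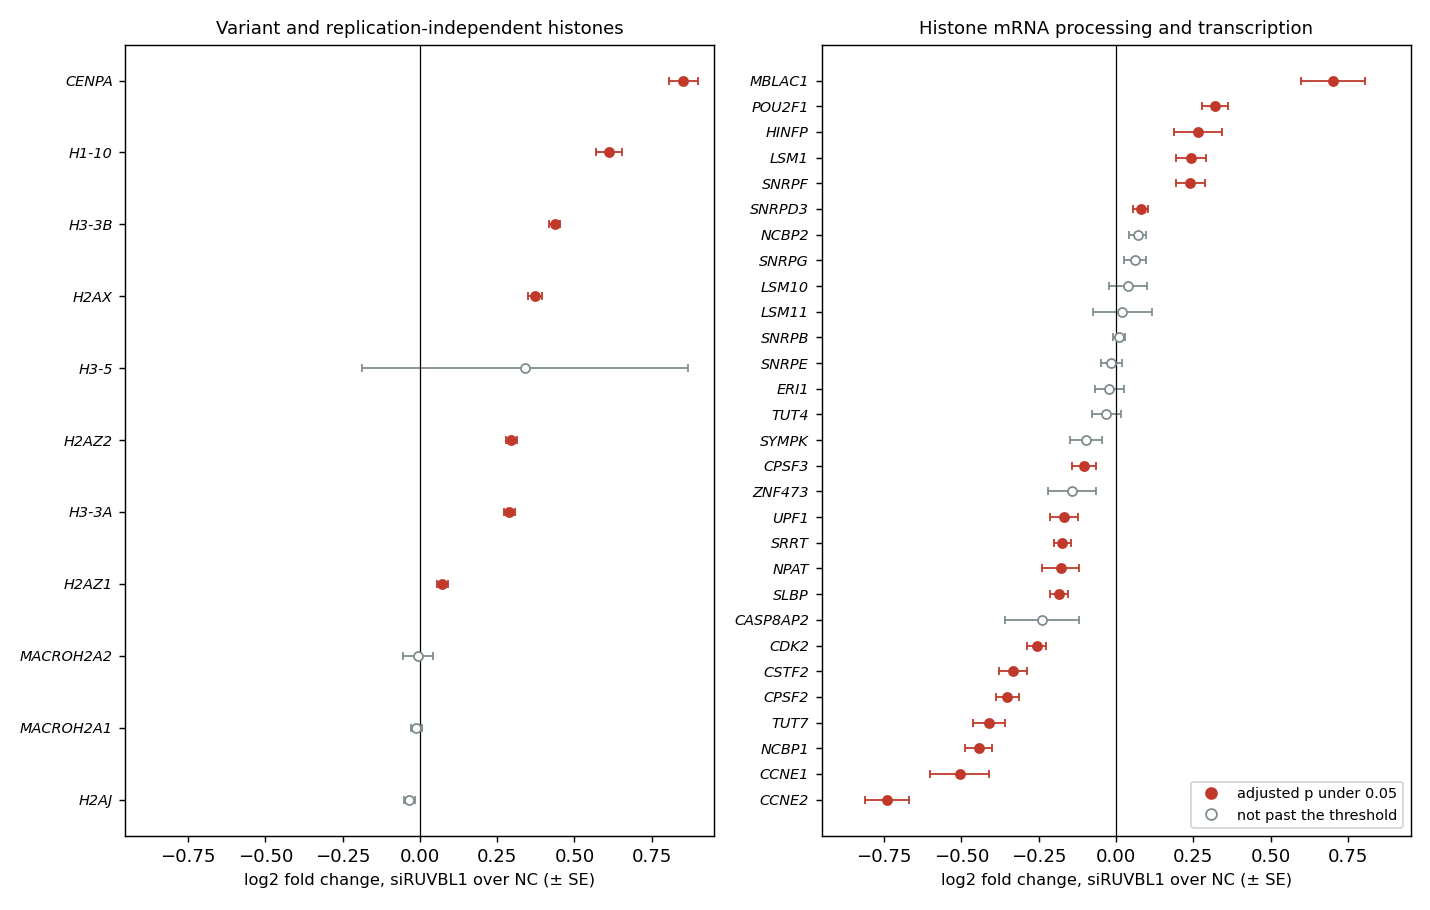
Log2 fold change of siRUVBL1 over NC, with bars of 1 SE, for 11 of the 12 tested variant histone genes (left) and 29 tested genes of histone mRNA processing and transcription (right); filled red points have an edgeR adjusted p under 0.05. The plotted variant histone genes that passed lie right of 0, up to 0.85 for CENPA, and genes of the other list lie on both sides, with CCNE2 at -0.74.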

How the data were processed

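RNA of 6 libraries was sequenced, and each library's group and number come from its label. As deposited by the authors, the values are estimated counts per gene, not normalized. Bowtie 0.12.2 and mouse builds (mm8, mm9) are listed, per the submitters' processing notes, although the deposited gene identifiers are human. The counter, human build, annotation, strand and RNA selection were not given in the sources used here. The members and gene lists were chosen with earlier results of these data known.

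Estimated counts were rounded and fitted in edgeR 4.0.16 (R 4.3.3; filterByExpr by group, TMM, robust quasi-likelihood test, group as the only term). P-values were adjusted by Benjamini-Hochberg over 16006 genes with a threshold of 0.05. The SE is the log2 fold change divided by the square root of F. Alternatives were DESeq2 1.42.0, limma-voom 3.58.1, other scalings and filters, a replicate block and each library left out. The fits were tested on simulated data. By the rule for named genes, well measured members are given for every library, other members by range, and from each companion list the 6 smallest p past the threshold plus NPAT, CASP8AP2, SLBP and LSM11; 1 gene that this rule names is not reported here. Deviations from the group means of same-numbered libraries correlated at 0.939, 0.819 and 0.823 (0.423, 0.192 and 0.22 without genes at 0 in replicate 1), and on that ground same-numbered libraries were treated as pairs in the block fit; this comes from the values, not from the labels. Sequence shared between genes was measured as 50-base stretches of GENCODE 29 transcripts. Promoters came from RefSeq (GRCh38.p14). The precision of low genes is limited by their counts. Members without a row and one further marker, PECAM1, were not analysed here.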

Additional observations from a re-analysis of the deposited data

How the results depend on the processing

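Over 15 alternative settings, the number of members called higher ran from 6 to 11, against 8, and the number called lower was 1 in each. The share of all genes called higher ran from 9.48% (no low-count filter) to 31.1% (library totals alone). Their share called lower ran from 13.9% (no low-count filter) to 27.6% (at least 50 counts in 3 libraries). With the replicate block the counts were 8 higher and 1 lower, beside 23.4% higher and 25.6% lower over all genes. The pairing changed no member's call. H2AC6, H2AC11, H2AC18, H2BC5, H2BC15 and H2BC21 passed in all 15. Of 366 values of single members under an alternative, 336 kept their direction and their side of the threshold, 13 lost the call, 7 gained it and 10 turned their direction. Library totals alone moved the median of all genes by 0.0993 on the log2 scale and gave 4981 genes higher and 2297 lower. With them the summed CPM had log2 ratios of siRUVBL1 over NC of 0.15 for H1, 0.12 for H2A, 0.20 for H2B, 0.10 for H4 and 0.17 for all members, H2BC12 had a log2 fold change of 0.074 and H4C8 of 0.013. The number of variant histone genes called lower was 0 to 1 with a library left out, and 1 without replicate 1 of both groups.

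With libraries left out, the log2 fold change changed direction in genes that did not pass the test: H2AC13 ranged over -0.31 to 0.15, H2BC13 over -0.077 to 0.16, H2BC18 over -0.021 to 0.18, H2BC26 over -0.15 to 0.58, H4C16 over -0.0035 to 0.059 and LSM11 over -0.055 to 0.12. The cause was not tested. Among tested members under 100 normalized counts, counting error alone gave SEs from 0.13 (H2BC18) to 0.364 (H2BC26).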

Other observations

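Histone pseudogenes were left out of the members. Of 12 with a row, 10 had fewer than 10 counts in every library. H2BC20P had 1927, 1651 and 1554 normalized counts in siRUVBL1 libraries, against 1485, 1294 and 1342 in NC libraries. The groups did not overlap, and the gene missed the threshold (log2 fold change 0.32, SE 0.103, edgeR adjusted p = 0.0679). H2BC19P had 73.4, 59.6 and 67.4 normalized counts in siRUVBL1 libraries, against 42.7, 57.7 and 27.4 in NC libraries, again apart and short of the threshold (log2 fold change 0.64, SE 0.253, edgeR adjusted p = 0.0597).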
